A study of Mus musculus with 6 samples.

Results

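The 10 genes described here encode the TGF-beta ligands (Tgfb1, Tgfb2, Tgfb3) and their receptors (Tgfbr1, Tgfbr2, Tgfbr3), together with 3 BMP ligands (Bmp2, Bmp4, Bmp7) and the BMP receptor gene Bmpr1a. They were chosen by gene symbol, and all 10 were found, once each, among the 42747 rows of the gene count table. All 10 passed the filter on low counts and were among the 18383 genes tested. RNA came from whole testes of E16.5 mouse embryos, with 3 animals labelled WT and 3 labelled cKO, read here as wild type and conditional knockout. According to the series title the kinase CK1α was studied in Sertoli cells, which enclose and nurse the germ cells in the testis cords, and its gene is Csnk1a1. The sources used here do not state the Cre driver, the deleted part of the gene, the alleles of the WT mice or the mouse strain. Of these 10 genes, Tgfb2 was the 1 that passed the test (edgeR), 1.84-fold higher in cKO.

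TGF-beta ligands are secreted in a latent form and, once released, bring together a type II receptor (Tgfbr2) and a type I receptor kinase (Tgfbr1), which phosphorylates the transcription factors Smad2 and Smad3. Betaglycan, encoded by Tgfbr3, is a co-receptor that presents TGF-beta ligands and also binds inhibins. BMP ligands signal through type I receptors such as Bmpr1a to Smad1 and Smad5, with the ID genes among the best known targets. In the fetal testis the wider family includes Amh, a hormone of Sertoli cells, as well as activins and inhibins.

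Gene counts summed to 15092619 to 17431546 per library, of which the 10 genes took 10979 to 14352. The smallest single count of a member was 114 (Bmp4 in WT library 2). Csnk1a1 stood at 377 to 405 CPM in cKO and 348 to 396 CPM in WT (CPM, counts scaled to a common library size), but a count over the whole gene in a whole organ does not check a deletion in 1 cell type. Libraries of one group differed well beyond sampling noise, and each was counted as 1 replicate. cKO libraries 1 and 2 were less alike (Pearson r of log2 CPM 0.974) than cKO library 1 and any WT library (0.976 to 0.978). The other cKO pairs stood at 0.985 and 0.983, and the WT pairs at 0.988 to 0.989. The fewest genes with a count were in cKO library 2, 22865 against 25183 to 27358. Markers of Sertoli cells, germ cells and fetal Leydig cells were all detected, as the tissue label requires. Of 12 Sertoli cell markers, 9 were called lower in cKO by edgeR and none higher. In 1 of the 12 the log2 fold change was positive, with all cKO values above all WT values. The summed level of the list was 1500 to 1831 CPM in cKO against 3165 to 4220 CPM in WT. In bulk RNA, fewer cells of a type and less RNA per cell cannot be told apart.

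Levels of different genes can be compared only per gene length, so the authors' FPKM (fragments scaled by gene length and library size) were used for the order within WT testes. Bmpr1a was the most abundant of the 10 at 27.6 ± 0.799 FPKM (SD, n = 3), and its 3 WT values lay above those of every other member. Tgfbr1 (20.3 ± 2.11 FPKM), Tgfbr2 (17.03 ± 2.33), Tgfbr3 (16.3 ± 1.78) and Tgfb3 (15.9 ± 0.641) followed, and neighbours in this stretch had overlapping values. Below them came Tgfb2 at 11.96 ± 1.46 FPKM and Tgfb1 at 11.2 ± 2.04 FPKM, again overlapping. The 3 BMP ligands were the rarest of the 10. Bmp7 stood at 5.52 ± 0.730, Bmp4 at 3.69 ± 0.177 and Bmp2 at 2.53 ± 0.0206 FPKM, each apart from the next. Among these 10 genes, receptor transcripts were thus above their ligands in WT, with the exception of Tgfb3, which overlapped Tgfbr2 and Tgfbr3. For the BMP ligands this rests on Bmpr1a alone and does not extend to the wider family. Outside the 10, the receptor gene Bmpr1b stood at 0.915 FPKM in WT, below all 3 BMP ligands. The ligand Bmp6 (11.7 FPKM) was near the receptors Acvr1 (11.9) and Bmpr2 (12.5). In cKO testes Bmpr1a was again first (27.2 ± 3.03 FPKM), and Tgfb2 stood second at 22.1 ± 0.988 FPKM, overlapping Tgfbr1 (20.8 ± 1.04).

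**Figure D1:**
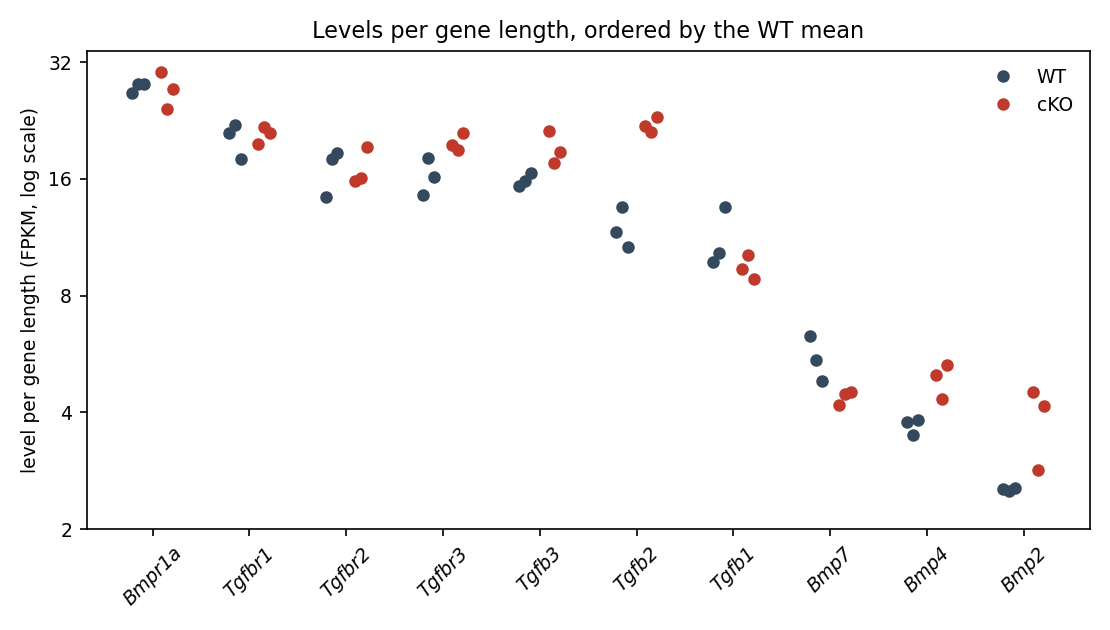
Level per gene length (FPKM, log scale) of the 10 genes in each of the 3 WT (dark) and 3 cKO (red) libraries, ordered by the WT mean. Tgfb2 lies between 10.7 and 13.6 FPKM in WT and between 21.2 and 23.1 FPKM in cKO.

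Among the TGF-beta ligands, Tgfb2 rose in cKO. Its level was 68.6, 79.1 and 62.5 CPM in WT libraries 1, 2 and 3, and 128, 124 and 135 CPM in cKO libraries 1, 2 and 3. The groups lay far apart, with the lowest cKO library above the highest WT library by more than the range of either group. The means were 129 ± 5.79 CPM in cKO and 70.1 ± 8.40 CPM in WT (SD, n = 3 each), a log2 fold change of 0.88 (SE 0.123, 95% confidence interval 0.61 to 1.15; edgeR quasi-likelihood test, Benjamini-Hochberg adjusted p = 0.00234 over all 18383 genes). By p-value it ranked 143 among all genes tested, and 7.34% of them had a larger absolute log2 fold change. The call held in all 16 alternative fits, with log2 fold changes of 0.80 to 0.98 and adjusted p-values up to 0.0229. The gene lies on chromosome 1, minus strand, at 199581277 to 199672392 (C57BL/6NJ coordinates, as deposited). An antisense gene at its start, Gm29491, held 3 to 14 counts per library and a snoRNA gene inside it, Gm26169, at most 4, against at least 1045 for Tgfb2.

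The promoter of Tgfb2 is shown because this was the member that changed, beside that of Tgfb1, its paralog, which did not pass the test. Windows of 250 bases before the transcript start were taken from RefSeq (build GRCm38.p6, not the coordinates of the count files), where 6 of the 10 genes had an entry. Letters in capitals are matches, on either strand, to TATAAA (which places the start of transcription), CACGTG (the E-box), TGACG (core of the cAMP response element), CTTTGTT or its variant CTTTGAT (core of sites for TCF/LEF, the factors that work with β-catenin) and GGGCGG (the GC box). The Tgfb2 window is chr1:186705990-186706239, minus strand, and the Tgfb1 window chr7:25686752-25687001, plus strand.
Tgfb2: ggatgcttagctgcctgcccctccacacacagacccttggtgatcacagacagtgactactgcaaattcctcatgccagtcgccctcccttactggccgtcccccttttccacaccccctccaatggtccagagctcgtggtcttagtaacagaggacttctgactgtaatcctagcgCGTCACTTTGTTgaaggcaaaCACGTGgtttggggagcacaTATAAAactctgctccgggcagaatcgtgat
Tgfb1: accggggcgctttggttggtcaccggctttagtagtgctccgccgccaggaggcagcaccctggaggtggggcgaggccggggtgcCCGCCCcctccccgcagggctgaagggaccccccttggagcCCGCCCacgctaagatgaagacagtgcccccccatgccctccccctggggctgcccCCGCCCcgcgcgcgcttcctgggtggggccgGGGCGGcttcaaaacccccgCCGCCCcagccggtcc
In the Tgfb2 window TATAAA began 31 bases before the start, CACGTG 51 bases, CTTTGTT 67 bases and the reverse complement of TGACG 72 bases before it, the last of these directly adjoining CTTTGTT without overlap. Over 32851 mouse promoter windows of this length, 12.4% held TATAAA, 6.02% CACGTG, 17.8% TGACG, 5.03% CTTTGTT, 3.21% its variant CTTTGAT and 32.7% GGGCGG. The Tgfb1 window held 5 GC boxes and none of the other motifs, and was richer in G and C (75.2% against 53.6% for Tgfb2, with a median of 52.4% over all windows). Of the remaining windows of these genes, that of Bmp4 held 1 E-box and 1 GC box, that of Bmpr1a 4 GC boxes, that of Tgfbr2 none of the motifs, and 1 of the 2 windows of Tgfbr1 held 2 GC boxes. These matches describe the letters only, and binding was not measured.

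Tgfb1, the founding member of the family, was not called. WT libraries 1, 2 and 3 held 49.9, 52.1 and 68.7 CPM and cKO libraries 47.3, 51.3 and 44.7 CPM, so the groups overlapped and WT library 3 stood highest. The log2 fold change of -0.25 (SE 0.147) did not pass the test (edgeR adjusted p = 0.451), and without WT replicate 3 it was -0.09. Tgfb3 stood at 52.8, 53.8 and 56.8 CPM in WT and 72.6, 60.04 and 64.1 CPM in cKO. Its groups did not overlap, yet the difference did not pass the test (0.27, SE 0.122; edgeR adjusted p = 0.319, unadjusted p = 0.0507). The 3′ part of Tgfb3 overlaps Ttll5 on the opposite strand (39.1 CPM in WT and 37.3 CPM in cKO), and with no strand setting stated, reads from the overlap cannot be assigned with certainty.

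With one ligand changed, the make-up of the TGF-beta ligand pool differed between the groups. Tgfb2 made up 31.7%, 34.2% and 26.2% of the summed FPKM of the 3 ligands in WT libraries 1, 2 and 3 and 41.6%, 43.3% and 45.6% in cKO libraries 1, 2 and 3. The share of Tgfb1 was 26.0% to 33.2% in WT and 17.4% to 20.8% in cKO, without overlap. The share of Tgfb3 was 40.7 ± 0.974% in WT and 37.8 ± 2.40% in cKO, with overlapping values. Tgfb3 was therefore the largest part of the pool in all 3 WT libraries, and Tgfb2 in all 3 cKO libraries. The summed level of the 3 ligands was 39.1 ± 2.09 FPKM in WT and 50.7 ± 1.75 FPKM in cKO. These shares are given as a description, since they follow in part from the value of Tgfb2.

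**Figure D2:**
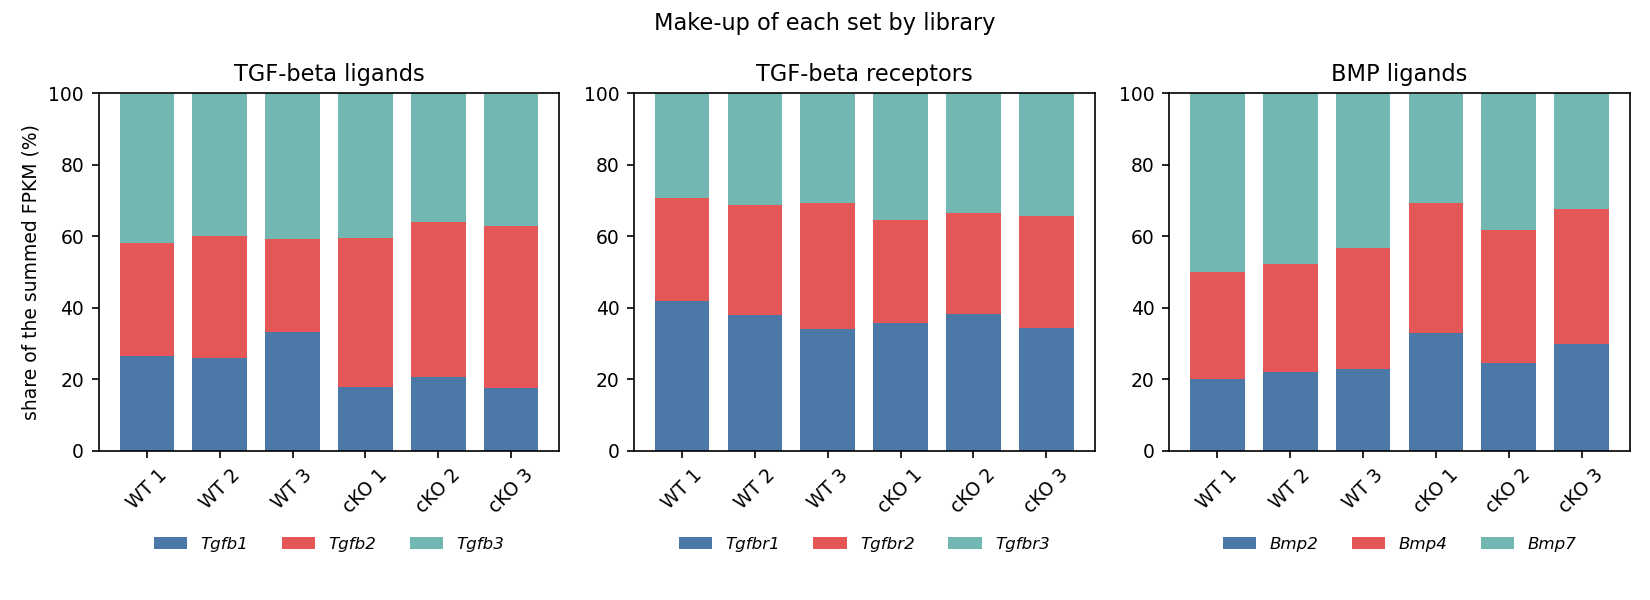
Share (%) of each gene in the summed FPKM of the TGF-beta ligands, the TGF-beta receptors and the BMP ligands, one bar per library. The Tgfb2 segment is 26.2% to 34.2% in WT and 41.6% to 45.6% in cKO, and the Bmp7 segment 43.1% to 49.9% in WT and 30.5% to 38.3% in cKO.

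The TGF-beta receptors did not pass the test in either direction. Tgfbr1, the type I receptor kinase, stood at 127, 132 and 108 CPM in WT and 118, 130 and 126 CPM in cKO, with overlapping groups (0.03 on the log2 scale, SE 0.119; edgeR adjusted p = 0.929). Its 95% interval allows a cKO level between 0.852 and 1.22 times that of WT. Tgfbr2, the type II receptor that binds the ligand, stood at 69.9, 87.0 and 90.3 CPM in WT and 76.5, 77.7 and 93.0 CPM in cKO (edgeR adjusted p = 0.998; interval 0.811 to 1.23 times). For both kinases the intervals reach to either side of no difference, and a 2-fold difference lies outside them. Tgfbr3, the betaglycan gene, stood at 99.9, 123 and 110 CPM in WT and 133, 129 and 143 CPM in cKO. All 3 cKO values were above all WT values, but the log2 fold change of 0.28 (SE 0.119, 95% interval 0.02 to 0.55) had an edgeR adjusted p of 0.274. Its share of the summed receptor FPKM was 29.2% to 31.1% in WT and 33.5% to 35.5% in cKO.

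**Figure D3:**
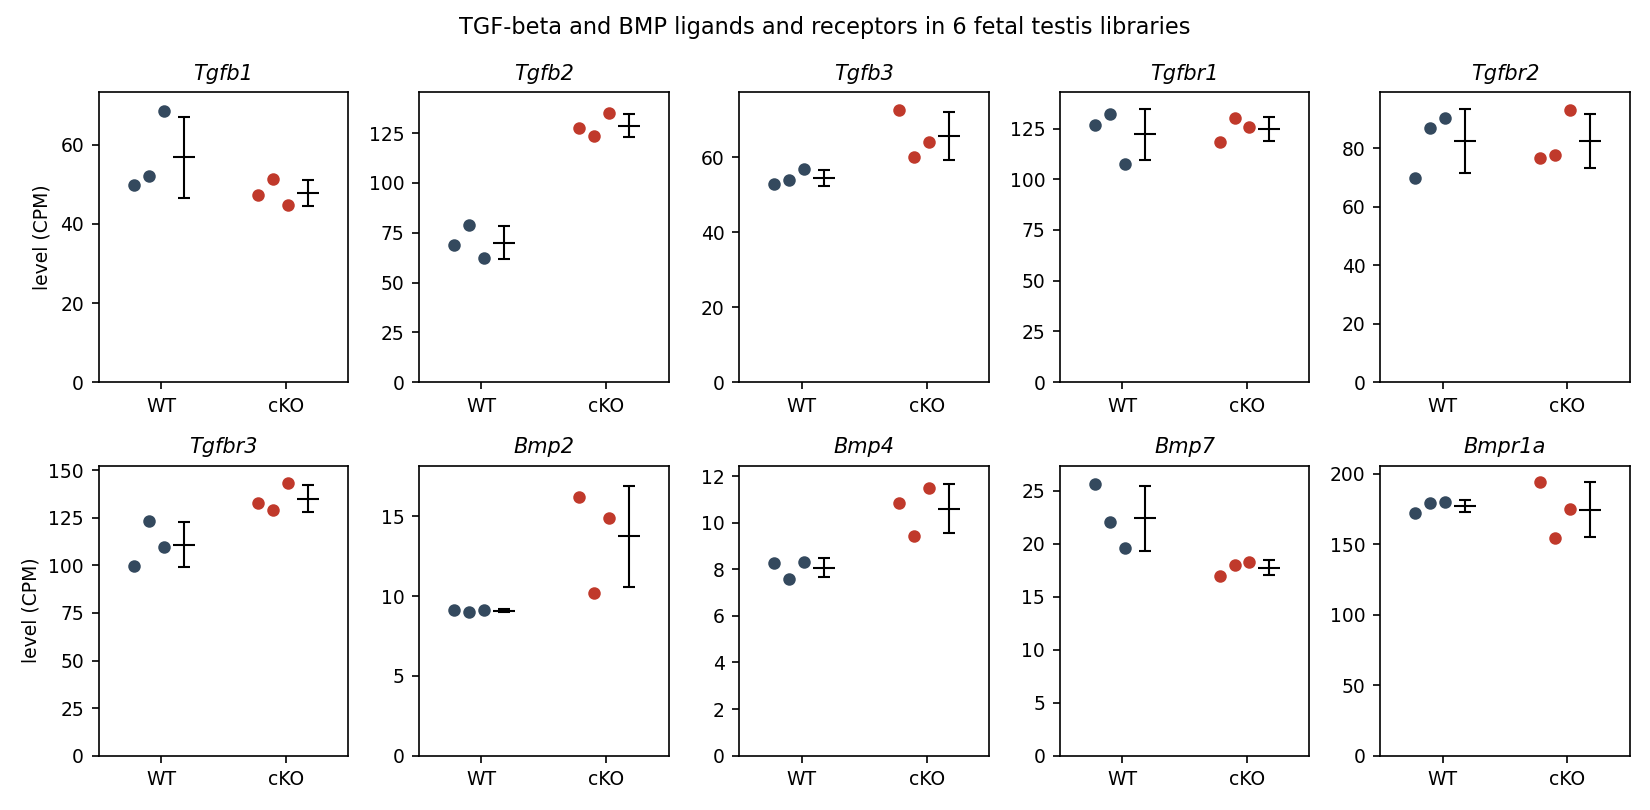
Level (CPM, axes from 0) of each of the 10 genes in the 3 WT and 3 cKO libraries (points), with mean and SD beside them. Tgfb2 ranges from 62.5 to 79.1 CPM in WT and from 124 to 135 CPM in cKO, while Tgfb1, Tgfbr1, Tgfbr2 and Bmpr1a overlap between the groups.

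The 3 BMP ligands among the 10 genes were rare, and none of them passed the test. Bmp6, a BMP ligand outside the 10, was less rare, at 11.7 ± 1.36 FPKM in WT. Bmp2 was nearly constant in WT, at 9.15, 8.98 and 9.15 CPM, and higher but scattered in cKO, at 16.2, 10.2 and 14.9 CPM in libraries 1, 2 and 3. The log2 fold change was 0.60 (SE 0.216, 95% interval 0.12 to 1.07), and it did not pass the test (edgeR adjusted p = 0.198). cKO library 2 decided this call: without it the log2 fold change was 0.78 with an edgeR adjusted p of 0.0451. Bmp4 stood at 8.28, 7.58 and 8.31 CPM in WT and 10.9, 9.44 and 11.5 CPM in cKO, apart but not called (0.40, SE 0.200, edgeR adjusted p = 0.378). An antisense gene that overlaps Bmp4 held 2 to 20 counts per library, against 114 to 200 for Bmp4. With no strand setting stated, reads from this overlap cannot be assigned with certainty either. Bmp7 was the one ligand of the 3 with lower values in cKO, at 25.6, 22.02 and 19.6 CPM in WT and 16.9, 18.0 and 18.3 CPM in cKO (-0.34, SE 0.161; edgeR adjusted p = 0.349). Its lowest WT library and highest cKO library differed by little, and without WT replicate 1 the log2 fold change was -0.23. Bmp7 made up 46.9 ± 3.45% of the summed FPKM of these 3 ligands in WT and 33.7 ± 4.05% in cKO, where Bmp4 held the larger share in 2 of the 3 libraries.

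Bmpr1a, a type I receptor of BMP ligands, was the most abundant member and showed no call. It stood at 172, 179 and 180 CPM in WT and 194, 155 and 175 CPM in cKO, where libraries 1 and 2 lay on either side of all WT values. The log2 fold change of -0.02 (SE 0.119) did not pass the test (edgeR adjusted p = 0.948), and the 95% interval allows a cKO level of 0.820 to 1.18 times that of WT.

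**Figure D4:**
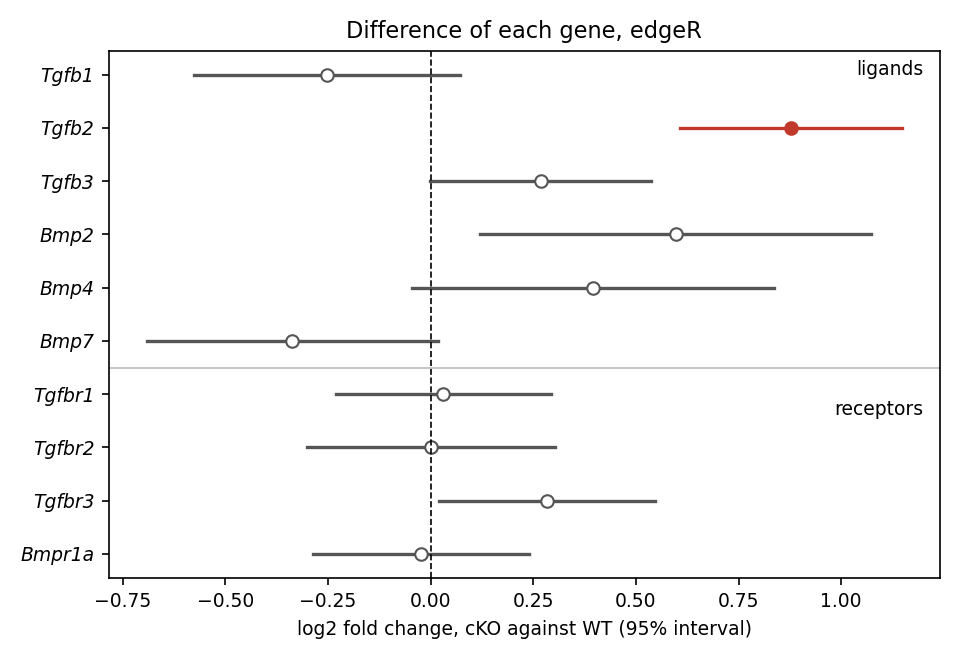
Log2 fold change of each gene in cKO against WT from the edgeR fit (points) with 95% confidence intervals (lines), ligands above and receptors below. Filled red marks the 1 gene with an adjusted p under 0.05, Tgfb2 at 0.88. The intervals of Bmp2 and Tgfbr3 also lie above 0 before adjustment.

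Counted together, 1 of the 10 genes was called by edgeR, higher in cKO, and 0 were called lower, where 3.35% of all genes tested were called (1.50% higher and 1.84% lower). Before adjustment, p was under 0.05 for 3 of the 10, all higher in cKO, against 15.8% of all genes. The groups did not overlap for 6 of the 10 (5 higher, 1 lower), against 21.6% of all genes tested. The median log2 fold change was 0.15 over the 10 genes and 0.0026 over all genes, and the median absolute log2 fold change 0.28 against 0.22. For the other 9 genes, 15.2% (Bmp2) to 99.8% (Tgfbr2) of all genes tested had a larger absolute log2 fold change.

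Other ligands of the family were tested for 18 of 25 genes, and by edgeR 2 fell in cKO with none higher. Both are known as products of Sertoli cells: Amh, which makes the Müllerian duct regress, and Inhbb, the activin and inhibin beta B subunit. Inhbb stood at 240, 333 and 276 CPM in WT and 86.6, 155 and 74.5 CPM in cKO (-1.43 on the log2 scale, SE 0.242; edgeR adjusted p = 0.00775), and Amh was 5.33-fold lower (edgeR adjusted p = 0.00381). Bmp6 (28.4 ± 3.23 CPM in WT and 32.2 ± 1.74 CPM in cKO) and Inhba (88.1 ± 24.2 and 94.2 ± 13.4 CPM) were not called. Inha, the inhibin alpha subunit and also a Sertoli cell marker, stood at 359, 497 and 427 CPM in WT and 332, 238 and 296 CPM in cKO, apart but not called (-0.57, SE 0.160; edgeR adjusted p = 0.0925). DESeq2 called 3 of the 18 ligands lower, and without cKO replicate 2 edgeR called 1 higher and 2 lower. These falls stood beside those of the Sertoli cell markers given above, of which Amh is one, and the part of that list in them was not tested. Over the 18 genes the median log2 fold change was -0.06, and unadjusted edgeR p was under 0.05 for 3 higher and 3 lower.

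Of 12 other receptors and co-receptors tested, 1 fell and none rose by edgeR. Before adjustment, edgeR p was under 0.05 for 2 higher and 3 lower. Lower calls numbered 2 with DESeq2, and also with edgeR using upper-quartile factors, without the low-count filter or without cKO replicate 1. The receptor gene called in the main edgeR fit was Acvrl1, the endothelial type I receptor also called ALK1. Acvrl1 stood at 82.3, 112 and 105 CPM in WT and 63.9, 60.6 and 63.1 CPM in cKO (-0.67 on the log2 scale, SE 0.134, edgeR adjusted p = 0.0191). Its cKO values were close together and all below WT, and 5 of 16 alternative fits lost the call, including those without cKO replicate 3, WT replicate 2 or WT replicate 3 (adjusted p up to 0.113). Of 6 general endothelial markers, 1 was higher (Kdr) and none lower by edgeR, with a summed level of 483 to 601 CPM in cKO and 466 to 555 CPM in WT. Acvr1b had the smallest p of those not called, at 74.7, 76.7 and 73.6 CPM in WT and 59.4, 53.9 and 46.0 CPM in cKO. Its groups did not overlap (-0.50 on the log2 scale, SE 0.128, edgeR adjusted p = 0.0644). Bmpr2, Acvr1 and Amhr2 were not called either, at -0.30, 0.33 and 0.40 on the log2 scale.

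Among the 8 SMAD genes, which carry or block the signal inside the cell, Smad7 fell and none rose by edgeR, with 1 called higher without cKO replicate 2. Smad7, a feedback inhibitor induced by TGF-beta, stood at 110, 152 and 109 CPM in WT and 75.3, 86.1 and 76.1 CPM in cKO (log2 fold change -0.64, SE 0.147; edgeR adjusted p = 0.0391). This call was weak, since 7 of 16 alternative fits lost it, among them 5 of the 6 that left out a library (all but that without cKO replicate 2), with adjusted p up to 0.178. The TGF-beta effectors Smad2 (-0.27) and Smad3 (0.28) and the BMP effectors Smad1 (0.47) and Smad5 (0.30) were not called. Each of these had groups that did not overlap, as did 21.6% of all genes tested. Over the 8 SMAD genes, unadjusted edgeR p was under 0.05 for 3 higher and 1 lower in cKO.

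Of 16 extracellular antagonists and modulators tested, Bmper, a secreted modulator that binds BMP ligands, fell and none rose by edgeR. DESeq2 called 1 of the 16 higher, and edgeR 2 without the low-count filter and 2 without cKO replicate 2. Before adjustment, edgeR p was under 0.05 for 4 of the 16 higher and 4 lower. Bmper was rare, at 8.84, 18.4 and 18.3 CPM in WT and 5.53, 5.58 and 6.04 CPM in cKO (-1.41 on the log2 scale, SE 0.282; edgeR adjusted p = 0.0197), and 6 of 16 alternatives lost the call (adjusted p up to 0.121), among them limma-voom and the fits without cKO replicate 3, WT replicate 2 or WT replicate 3. None of 12 genes of latency and activation, the step that frees TGF-beta ligands from their store in the matrix, passed the test with edgeR, limma-voom or DESeq2 (2 genes had an unadjusted p under 0.05, both higher), and 2 were called higher by edgeR without the low-count filter. Nearest were the latent TGF-beta binding proteins Ltbp1 (119 ± 18.7 CPM in WT and 157 ± 11.3 CPM in cKO; edgeR adjusted p = 0.169) and Ltbp3 (321 ± 70.1 and 439 ± 32.2 CPM; edgeR adjusted p = 0.188).

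Response genes of both branches were listed from general knowledge of their targets. Of 12 TGF-beta response genes 0 were called by edgeR or limma-voom and 1 by DESeq2 (3 at an unadjusted p under 0.05, all higher), with a median log2 fold change of -0.0046. With edgeR 2 were called higher without the low-count filter and 2 without cKO replicate 1. Pmepa1, a membrane protein induced by TGF-beta that limits the signal, had the smallest p: it stood at 81.2, 84.4 and 85.0 CPM in WT and 112, 110 and 107 CPM in cKO, tightly grouped and apart (0.39, SE 0.105; edgeR adjusted p = 0.0781). Pmepa1 was called by DESeq2 (adjusted p = 0.0200). Col1a2, a collagen gene, came next (0.60, edgeR adjusted p = 0.232), and passed with edgeR without cKO replicate 1 (adjusted p = 0.0446). It also passed with edgeR without the low-count filter (adjusted p = 0.00776), where its SE was 0.161 against 0.231 in the main fit. Of 9 BMP response genes tested, Id1 and Id2 rose and none fell by edgeR. All 9 had a positive log2 fold change, against 50.4% of all genes tested, and the median was 0.73. Unadjusted edgeR p was under 0.05 for 6 of the 9, all higher, against 15.8% of all genes. Id2, an inhibitor of basic helix-loop-helix factors, went from 25.0, 29.5 and 33.5 CPM in WT to 123, 53.6 and 66.0 CPM in cKO (1.46, SE 0.266; edgeR adjusted p = 0.0118), and Id1 from 34.1 ± 6.33 to 60.1 ± 11.1 CPM (0.82, SE 0.175; edgeR adjusted p = 0.0267). Each lost its call in 4 of 16 alternative fits, Id1 without WT replicate 1 or WT replicate 3 and Id2 without WT replicate 1 or WT replicate 2 among them, with adjusted p up to 0.161 and 0.0793. ID genes also respond to signals other than BMP, and no protein or SMAD phosphorylation was measured.

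**Figure D5:**
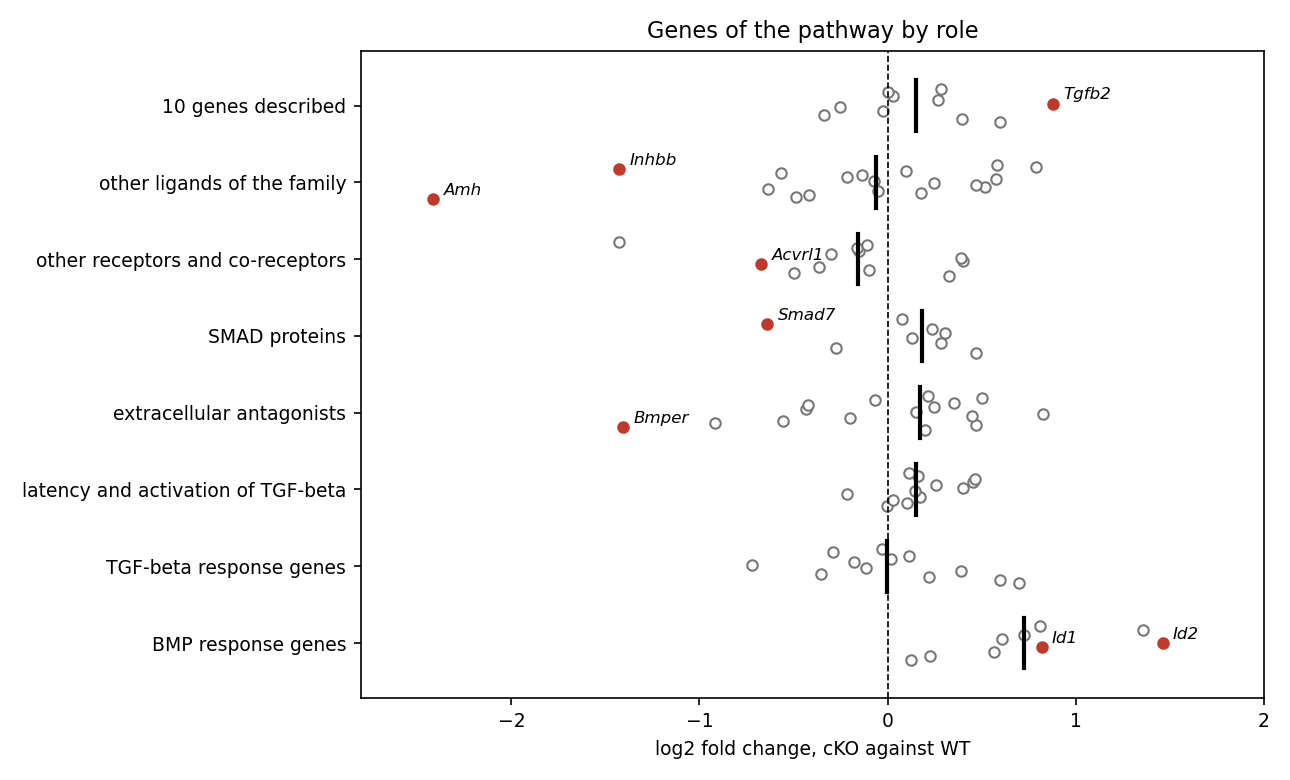
Log2 fold change in cKO against WT for each tested gene of the pathway, grouped by role; filled red points are called by edgeR and named, and bars mark the median of each list. Tgfb2 (0.88), Id1 (0.82) and Id2 (1.46) are the called genes to the right of 0, and Amh (-2.41), Inhbb (-1.43), Bmper (-1.41), Acvrl1 (-0.67) and Smad7 (-0.64) those to the left.

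The genes whose levels over the 6 libraries were most like those of Tgfb2 were Wnt4 (Pearson r = 0.997), a Wnt ligand needed for ovary formation, Kif1a (r = 0.993), a kinesin motor gene, and Ccdc141 (r = 0.992), among 11062 genes whose mean reached 10 CPM. With 3 libraries a group, such values mostly reflect the shared difference between cKO and WT and are a description. Wnt4 stood at 74.8, 86.2 and 57.5 CPM in WT and 243, 221 and 251 CPM in cKO, with WT library 3 lowest and WT library 2 highest in the WT group for both genes. Since Wnt4 was picked for its likeness to Tgfb2 over these libraries, the shared order is no separate evidence.

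Cell type markers were set beside the rise of Tgfb2. Of 8 interstitial progenitor markers, 0 were called by edgeR or limma-voom and 3 by DESeq2, all higher (6 had an unadjusted edgeR p under 0.05, all higher). All 8 had a positive log2 fold change (0.03 to 0.67), against 50.4% of all genes tested. Their summed level was 8043 to 10611 CPM in cKO and 5443 to 8122 CPM in WT. All 6 fetal Leydig cell markers had a positive log2 fold change (median 0.47), with 0 called by edgeR, 1 higher by limma-voom and 2 higher by DESeq2 (4 had an unadjusted edgeR p under 0.05, all higher). Their sum was 5005 to 6844 CPM in cKO and 3794 to 4497 CPM in WT, without overlap. Of 7 markers of mesonephros and ducts tested, 1 was called higher by edgeR (Emx2), 1 by limma-voom and 2 by DESeq2. All 7 had a positive log2 fold change (median 0.56), and 3 had an unadjusted edgeR p under 0.05, all higher. The sum was 79.4 to 89.4 CPM in cKO and 49.1 to 54.4 CPM in WT, without overlap. Coelomic and surface epithelium markers had 0 of 6 called by edgeR or limma-voom and 1 by DESeq2 (1 in each direction before adjustment at 0.05) and overlapping sums (254 to 319 CPM and 237 to 273 CPM). Among 6 genes of myoid and smooth muscle cells, edgeR called Des higher and Ptch1 lower. Of the 6, 4 had a positive log2 fold change (median 0.11). The sum of all 6 was lower in cKO (731 to 824 CPM) than in WT (886 to 1069 CPM). None of the listed markers found in the table was at 0 in all libraries. The part of these cell types in the value of Tgfb2 was not tested.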

How the data were processed

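Polyadenylated RNA of 6 whole testes (3 cKO, 3 WT) was sequenced on an Illumina NovaSeq, per the labels' protocols. The submitters' processing notes name HISAT2 2.0.5 and GRCm38, while the gene identifiers and coordinates of the deposited tables are those of the C57BL/6NJ annotation. The sources used here do not state how reads were counted or whether by strand. Deposited values are raw gene counts, and the authors' FPKM, which equal count over gene length over a library denominator of 0.968 to 1.05 times the count total.

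Genes kept by filterByExpr were fitted to the counts in R 4.3.3 with edgeR 4.0.16 (quasi-likelihood test, TMM scaling, group as the only term). P-values were adjusted by Benjamini-Hochberg across the 18383 genes, and 0.05 was the threshold. The standard error is the absolute log2 fold change over the root of F. CPM used TMM-scaled totals. The common biological coefficient of variation was 19.7%. Alternatives were other scalings, DESeq2 1.42.0, limma 3.58.1 (voom, and trend on log2 FPKM with a pseudocount of 0.1 or 1), other low-count filters, a replicate block and leaving out each library. The fit was also run on simulated data with planted changes. There it recovered 49% of genes with a log2 change of 1 in either direction and 83% of those with 2. Of its 144 calls, 12 were false.

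The 10 genes and all lists were chosen with earlier results of these data known. Lists held 177 symbols, of which 174 were matched, 1 through a RefSeq synonym. Text names every called gene of a pathway list or, where none was called, the 2 with the smallest p, and the 3 genes most like Tgfb2. Other named genes were chosen after their values were seen. Germ cell, macrophage and erythroid markers had 0 of 8, 0 of 6 and 1 of 3 tested genes called by edgeR. At an unadjusted p under 0.05 they had 1 lower, 1 higher and 1 higher in cKO. Of the 8 germ cell markers, 1 had a positive log2 fold change, and the median was -0.26. Neither DESeq2 nor limma-voom called a germ cell or macrophage marker.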

Additional observations from a re-analysis of the deposited data

How the results depend on the processing

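Tgfb2 was called in all 16 alternative fits, and 1 of the 10 genes was called in each of them except that without cKO replicate 2, so that fits without 1 library called 1 to 2. The number of calls over all genes was 1101 with the DESeq2 Wald test, 1264 without the low-count filter, and 372 and 397 with limma-trend on FPKM at a pseudocount of 0.1 and 1, against 615 in the fit reported, and 272 to 723 without 1 library; the cause was not tested. Without the low-count filter, standard errors of unlike genes came close together. That of Amh was 0.154 (0.366 in the main fit), that of Id2 0.156 (0.266) and that of Tgfb2 0.144 (0.123). Calls gained in that fit are to be read with this limit. Directions of 3 members near 0 reversed, always far from the threshold. Tgfbr2 was -0.0097 with upper-quartile factors, -0.025 with library totals alone, -0.00066 with a mean of at least 1 CPM, and -0.10 to 0.072 without 1 library. Tgfbr1 ran from -0.051 to 0.098 and Bmpr1a from -0.10 to 0.059 without 1 library. Whether replicate numbers paired the samples could not be decided from 3 libraries a group. Deviations from the group mean correlated at -0.01, 0.22 and 0.03 for same-numbered libraries. Libraries with different numbers ran from -0.22 (cKO library 2 and WT library 3) to 0.22 (cKO library 1 and WT library 3). With the replicate block, 1 member (Tgfb2) and 696 genes were called, and 2 TGF-beta response genes, Col1a2 among them (edgeR adjusted p = 0.0206). The 3 rarest genes, the BMP ligands, had the largest standard errors (0.161 to 0.216), so small differences in them were the least detectable among the 10. Alternatives for the other pathway genes were added after seeing the data.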
